A study of Mus musculus with 4 samples.

Results

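The vascular endothelial growth factor (VEGF) family was followed by single-cell RNA sequencing in skin tumours of LKPR mice. Its 8 members are the ligands Vegfa, Vegfb, Vegfc, Vegfd and Pgf (placental growth factor) and the receptors Kdr, Flt1 and Flt4. They were chosen by gene symbol, and each matched 1 of the 31054 features listed in all 4 libraries. There were 2 NP137 libraries and 2 control libraries, made from live-sorted cells of dissociated tumours. The alleles of all mice included Lgr5CreER, p53fl/fl and Rosa26-YFP+/+. In this model a tamoxifen-activated Cre, driven by the Lgr5 promoter, deletes p53 and turns on the yellow fluorescent protein (YFP) reporter in the same cells. All mice received 4 daily intraperitoneal injections of 2.5 mg tamoxifen, the first on postnatal day 28, and tumours were seen at 7 to 9 weeks. NP137 is an antibody against netrin-1, a secreted guidance protein. NP137 mice received it intraperitoneally until death, at 10 mg/kg with 2 days between injections, beginning 4 weeks after tamoxifen. The labels give no treatment for the control mice and do not say that the libraries came from separate animals. Each p below therefore measures only the spread between these 4 samples.

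VEGF-A binds Kdr, the main signalling receptor of blood vessel growth, and Flt1, which binds VEGF-A tightly and signals weakly. A soluble form of Flt1 traps ligand outside the cell. VEGF-B and placental growth factor bind Flt1 and not Kdr. VEGF-C and VEGF-D act mainly through Flt4, the receptor of lymphatic vessel growth, and after cleavage also bind Kdr. Vegfa is a classical target of the hypoxia-inducible factors. The 3′ tag counts used here do not separate the soluble from the membrane form of Flt1, and levels are compared between cell classes for 1 gene at a time.

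After filtering, 14205 and 14513 cells of the NP137 libraries and 10482 and 5301 cells of the control libraries were used. Median depth was 2175 and 5093 unique molecular identifiers (UMIs) per cell in NP137 and 4184 and 5193 in control. Between 99 and 199 barcodes of a library also occurred in another. NP137 1 held cells with UMIs of the X-inactivation transcript Xist alone (27.9%) and cells with Y-linked UMIs alone (15.9%), so it held cells of both kinds. Whether animals were pooled in it or cells of another sample carried over was not tested. Of the others, NP137 2 and control 1 were of the first kind and control 2 of the second. Levels are in CPM, the UMIs of a gene scaled to the summed UMIs of a cell class in a library. Classes were named from markers of other genes, with the 8 members left out of clustering and naming. The blood endothelial-like class held all 12 of its markers in every library, at 8769 and 10064 CPM in sum in NP137 and 8790 and 9081 CPM in control. The lymphatic endothelial-like class held all 7 of its markers in every library, at 10685 and 7011 CPM in sum in NP137 and 12727 and 18055 CPM in control. It was small, with 76 and 34 cells in NP137 and 46 and 11 in control.

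The promoters of Kdr and Flt1 are shown because these receptors were both high in blood endothelium and parted in pericytes and lymphatic endothelium. Both genes lie on the minus strand of chromosome 5 of the mouse genome build GRCm38, Kdr at chr5:75932827-75978458 and Flt1 at chr5:147561604-147726011 in GENCODE M21. Each sequence is the 250 bases before the RefSeq start on GRCm38.p6, chr5:75978456-75978705 for Kdr and chr5:147726012-147726261 for Flt1, both on the minus strand. Capitals mark matches to the motifs searched on both strands.
Kdr: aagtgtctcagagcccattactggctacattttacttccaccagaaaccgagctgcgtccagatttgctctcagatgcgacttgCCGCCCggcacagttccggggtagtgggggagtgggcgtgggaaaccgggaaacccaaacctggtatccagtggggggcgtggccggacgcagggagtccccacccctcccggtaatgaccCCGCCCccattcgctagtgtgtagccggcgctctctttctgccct
Flt1: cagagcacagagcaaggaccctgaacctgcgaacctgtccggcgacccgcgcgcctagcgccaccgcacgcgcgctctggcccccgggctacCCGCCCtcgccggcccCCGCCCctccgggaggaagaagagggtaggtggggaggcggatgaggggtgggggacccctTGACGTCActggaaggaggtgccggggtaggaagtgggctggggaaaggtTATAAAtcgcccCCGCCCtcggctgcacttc
The Kdr window holds 2 matches to the GC box GGGCGG, both on the reverse strand, at -166 to -161 and -45 to -40 from the start. The Flt1 window holds 3 of them, at -158 to -153, -142 to -137 and -19 to -14, also on the reverse strand. It further holds TATAAA at -31 to -26 and the cyclic AMP response element core TGACGT on both strands, in overlapping positions at -81 to -76 and -79 to -74. Of 27025 mouse promoters of the same window, 33.0% hold GGGCGG, 13.0% hold TATAAA and 6.52% hold TGACGT. The exact string CGGAAG, searched as an ETS core and found in 13.8% of promoters, had no match in the window of any of the 8 members. The hypoxia element core ACGTG, found in 16.5%, had none either. The shorter GGAA, which the printed Kdr and Flt1 windows both hold, was not counted as a match. Bases outside the windows were not searched, so these results do not show that a member lacks either kind of element. The RefSeq window of Flt4 lies in its first exon in GENCODE M21, so for Flt4 it may not describe the promoter. The other members lie at chr17:46016993-46032369 (Vegfa, minus strand), chr19:6982473-6987651 (Vegfb, minus strand), chr8:54077606-54187096 (Vegfc, plus strand), chrX:164373378-164402650 (Vegfd, plus strand), chr12:85166635-85177790 (Pgf, minus strand) and chr11:49609263-49652739 (Flt4, plus strand).

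Of the receptors, Kdr marked both kinds of endothelium. In blood endothelial-like cells Kdr stood at 430.5 and 595 CPM in NP137 and at 588 and 802 CPM in control. No other class with at least 20 cells in every library averaged above 6.09 CPM, the level in dendritic-like cells. In lymphatic endothelial-like cells Kdr stood at 294 and 229 CPM in NP137 and at 320.0 and 378 CPM in control. Every lymphatic value lay below every blood endothelial value. Against the mean of the other classes, with library as a block, Kdr was higher in blood endothelial-like cells by 7.52 log2 units (SE 0.18, edgeR adjusted p = 3.6e-28) and in lymphatic endothelial-like cells by 6.40 (SE 0.27, edgeR adjusted p = 5.96e-20). The difference of lymphatic over blood endothelium was -1.02 (SE 0.35) and did not pass (edgeR adjusted p = 0.0774).

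Flt1 was shared by blood endothelium and pericytes and was almost missing from lymphatic endothelium. Blood endothelial-like cells held 939 and 1375 CPM of Flt1 in NP137 and 979.9 and 1386 CPM in control. Pericyte-like cells, the mural cells that wrap capillaries, held 224 and 331 CPM in NP137 and 244 and 169.8 CPM in control. Kdr was at most 1.71 CPM in the same pericyte-like sums. An unnamed class led by Mmp13 and Gzme held 31.7 and 44.1 CPM of Flt1 in NP137 and 62.2 and 50.5 CPM in control. These 3 classes did not overlap with one another, and all stood above the cells named fibroblast-like. The Mmp13- and Gzme-led class itself scored highest for the fibroblast marker set (0.797, with 8 of its markers detected). It was left unnamed because of leading genes of another class. At resolution 2 a cluster led by Mmp13 was named fibroblast-like (1532 cells), while another led by Gzme and Gzmd stayed unnamed (1130 cells). In lymphatic endothelial-like cells 3 UMIs of Flt1 were read, all in control 1 (15.5 CPM, 95% Poisson interval 3.19 to 45.3). Flt1 passed as higher in blood endothelial-like cells (6.51 log2 units over the mean of the other classes, SE 0.20, edgeR adjusted p = 1.93e-24), in pericyte-like cells (4.12, SE 0.22, edgeR adjusted p = 4.7e-17) and in the Mmp13- and Gzme-led class (1.73, SE 0.28, edgeR adjusted p = 5.82e-06). It passed as lower in lymphatic than in blood endothelium (edgeR adjusted p = 8.4e-10).

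Flt4 was highest in lymphatic endothelial-like cells and was present in blood endothelial-like cells. The lymphatic class held 588 and 482 CPM in NP137 and 939 and 709 CPM in control, and the blood class 65.7 and 88.3 CPM in NP137 and 135 and 64.9 CPM in control. The ranges did not overlap, and every other class averaged at most 1.07 CPM. The lymphatic lead over blood was 2.58 log2 units (SE 0.34, edgeR adjusted p = 1.73e-06). Markers of lymphatic endothelium summed to 22.8 and 108 CPM in the blood class of NP137 and 43.8 and 50.04 CPM of control, against at least 7011 CPM in the lymphatic class.

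**Figure D1:**
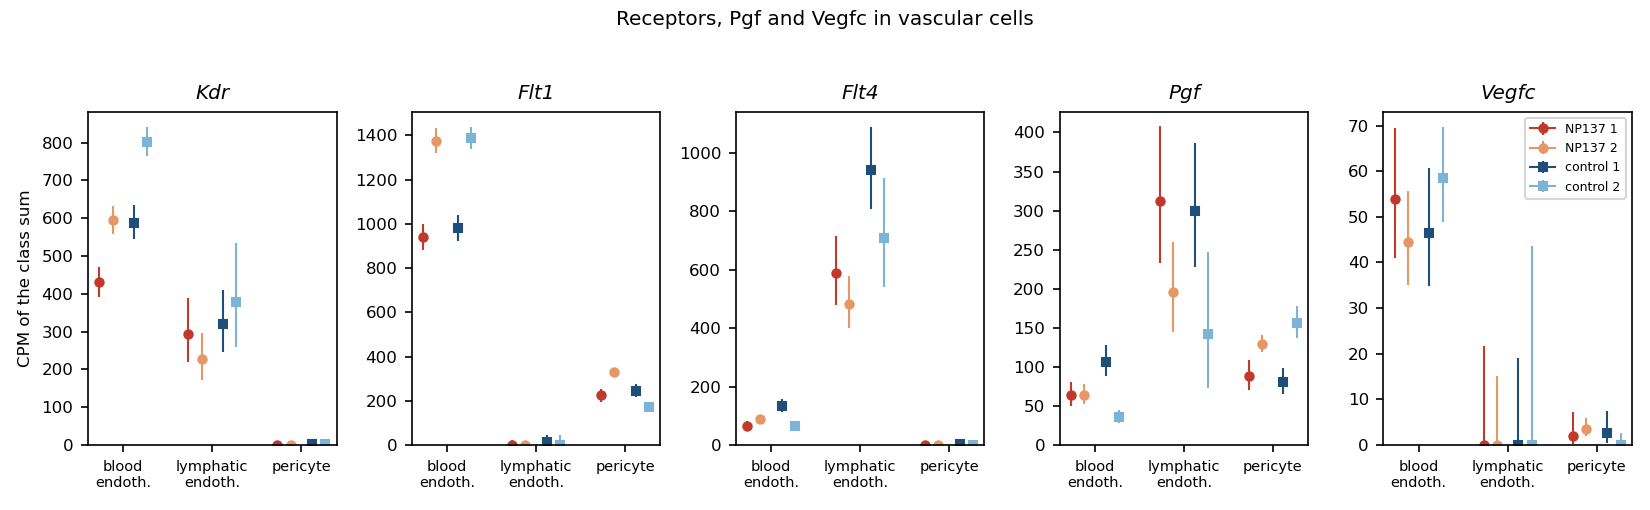
Levels of Kdr, Flt1, Flt4, Pgf and Vegfc in CPM in the 3 vascular classes, with 1 point per library (NP137 circles, control squares) and 95% Poisson intervals that cover counting error only. Kdr fills both endothelial classes, Flt1 fills blood endothelium and pericytes, Flt4 peaks in lymphatic endothelium, and Vegfc is at 0 in every lymphatic sum.

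The make-up of the receptor UMIs differed between the vascular classes. In blood endothelial-like cells Flt1 gave 65.4% and 66.8% of the 3 receptors' UMIs in NP137 and 57.6% and 61.5% in control, Kdr 30.0% and 28.9% in NP137 and 34.5% and 35.6% in control, and Flt4 at most 7.9%. In lymphatic endothelial-like cells Flt4 gave 66.7% and 67.8% in NP137 and 73.7% and 65.2% in control, with Kdr giving nearly all of the rest. In pericyte-like cells Flt1 gave between 98.3% and 99.7%. Many blood endothelial-like cells held Kdr and Flt1 together, 40.6% and 78.9% in NP137 and 57.8% and 66.8% in control. Cells with neither made up 21.4% and 3.98% in NP137 and 11.1% and 10.98% in control, and this share followed depth, at median UMI counts of 2000 and 5725 in NP137 and 2966 and 4987 in control. With each cell thinned to 1000 UMIs, Kdr was detected in 39.9% ± 6.72 and Flt1 in 59.5% ± 7.70 of blood endothelial-like cells (SD, n = 4 libraries), against 67.4% and 81.7% unthinned. In T or NK-like cells, which should lack both, no library exceeded 2.38% for Kdr or Flt1 after thinning. Flt4 was detected in 44.9% ± 15.5 of thinned lymphatic and 8.96% ± 3.45 of thinned blood endothelial-like cells (SD, n = 4 libraries), against at most 0.13% of T or NK-like cells. Median depth was 2343 to 6499 UMIs in the blood endothelial-like cells thinned and 1333 to 4535 in the T or NK-like cells, and 150 blood and 20 lymphatic endothelial-like cells were too shallow to thin.

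Blood endothelial-like cells differed among themselves by genes outside the family. Cells with a UMI of Ackr1 or Selp, genes of venules, held 575 and 897 CPM of Flt1 in NP137 and 709.7 and 937 CPM in control. Cells with a UMI of Esm1 or Apln, genes of sprouting tip cells, held 1140.3 and 1255 CPM in NP137 and 1079 and 1360.01 CPM in control. Within each library the venule-gene cells were the lower of the 2 for Flt1, and their Pgf was at most 14.6 CPM against at least 44.0 CPM in the tip-gene cells. Vegfc was 158 and 61.6 CPM in NP137 and 90.8 and 99.4 CPM in control in cells with a UMI of Gja5 or Hey1, genes of arteries. In cells with none of these 6 genes Vegfc was 36.8 and 25.5 CPM in NP137 and 32.3 and 22.3 CPM in control, below the artery-gene cells of each library. Pgf in the cells with none of them was 73.65 and 14.55 CPM in NP137 and 161.4 and 92.4 CPM in control. This was below the tip-gene cells in both NP137 libraries and above them in both controls. Flt1 in the cells with none was above the tip-gene cells in NP137 2 and control 2 and below them in NP137 1 and control 1. These subsets were chosen with results of these data known, share cells, and were not tested. Some rest on few UMIs. Vegfc in the cells with none of the genes had 16 and 7 UMIs in NP137 and 11 and 7 in control. Pgf in the venule-gene cells had 4 and 0 UMIs in NP137 and 3 and 6 in control. Choosing cells by a UMI also favours deeper cells, and depth was not matched between the subsets.

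The shares of endothelium in NP137 and control libraries overlapped. Blood endothelial-like cells were 3.09% and 1.73% of NP137 and 2.58% and 6.36% of control libraries, a difference in means of -2.06 percentage points (exact permutation test, two-sided p = 0.667). The difference rests on control 2, without which it is -0.167 points. Lymphatic endothelial-like cells were 0.535% and 0.234% of NP137 and 0.439% and 0.208% of control libraries, a difference of 0.061 points (exact permutation test, two-sided p = 0.667). With 2 against 2 libraries the smallest p is 0.333. An unnamed cluster led by AY036118 and Clu held 1519 cells of control 2; without it the blood endothelial share of control 2 is 8.91% and the difference -3.33 points.

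Of the ligands, Vegfa was widespread outside the vessels, with neutrophil-like and YFP-positive tumour cells at the top. Neutrophil-like cells held 137 and 296 CPM in NP137 and 175 and 146 CPM in control. YFP-positive cells, clusters in which at least 50% of the cells had a YFP UMI, held 114 and 246 CPM in NP137 and 154 and 69.3 CPM in control. The 2 ranges overlap, as do those of all neighbours in the order from neutrophil-like down to dendritic-like cells. Epithelial-like and macrophage or monocyte-like cells averaged 106 and 90.5 CPM over the 4 libraries. Pericytes and blood endothelium were lowest, pericyte-like cells at 16.9 to 24.0 CPM in NP137 and 12.4 to 17.9 CPM in control, and blood endothelial-like cells at 11.9 and 7.02 CPM in NP137 and 9.63 and 15.8 CPM in control. Vegfa passed as higher in neutrophil-like cells (2.47 log2 units over the mean of the other classes, SE 0.21, edgeR adjusted p = 4.61e-12) and YFP-positive cells (1.39, SE 0.23, edgeR adjusted p = 5.37e-06). It passed as lower in blood endothelial-like cells (-2.69, SE 0.35, edgeR adjusted p = 1.31e-07). T or NK-like cells also gave 47.1 and 21.6 CPM of Vegfa in NP137 and 71.8 and 63.9 CPM in control. After thinning, 2.93% to 10.0% of T or NK-like cells had a Vegfa UMI, against 14.5% ± 4.94 of neutrophil-like and 13.3% ± 4.43 of YFP-positive cells (SD, n = 4 libraries). Thinning left out 2954 neutrophil-like and 143 YFP-positive cells as too shallow. At 2000 UMIs it left out 6577 neutrophil-like cells, and the lowest library of that class was at 6.3%.

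Counted by UMIs, YFP-positive cells were the main source of Vegfa in all 4 libraries. They gave 61.0% and 32.4% of the Vegfa UMIs in NP137 and 77.8% and 50.7% in control, while making up 19.95% and 6.18% of the cells in NP137 and 39.6% and 22.8% in control. The share of Vegfa was above the share of cells in each library. A share of UMIs also follows the UMIs per cell. YFP-positive clusters held a median of 1.13 to 5.085 times the median depth of their library. Per UMI, Vegfa in control 2 was 69.29 CPM in YFP-positive cells, below the 72.67 CPM of all used cells. In the other libraries it was above the level of all used cells. By share of Vegfa UMIs in NP137 2, fibroblast-like cells followed with 24.3% and neutrophil-like cells with 15.2%. In a sum over all cells, fewer cells of a type and less RNA per cell cannot be told apart.

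Pgf had many sources. By UMIs, YFP-positive cells gave 43.0% and 40.7% of it in NP137 and 20.9% and 70.9% in control, and the Mmp13- and Gzme-led class 24.0% and 29.5% in NP137 and 18.6% and 0% in control. Macrophage or monocyte-like cells gave the largest share of control 1, at 29.8%, while lymphatic endothelial-like cells gave at most 3.38%. The levels within a class had another order. Lymphatic endothelial-like cells held 312 and 196 CPM in NP137 and 299 and 142 CPM in control. Dendritic-like cells held 231 and 44.8 CPM in NP137 and 237 and 49.2 CPM in control, so libraries of both groups were high and low. Pericyte-like cells held 88.0 and 129.8 CPM in NP137 and 80.1 and 157 CPM in control, and blood endothelial-like cells 63.8 and 64.4 CPM in NP137 and 107 and 35.6 CPM in control. Pgf passed as higher in lymphatic endothelial-like (1.91 log2 units, SE 0.62, edgeR adjusted p = 0.0308), dendritic-like (1.76, SE 0.52, edgeR adjusted p = 0.00862) and pericyte-like cells (1.42, SE 0.52, edgeR adjusted p = 0.0344) and in the Mmp13- and Gzme-led class (1.27, SE 0.50, edgeR adjusted p = 0.0446). Within dendritic-like cells it lay in the cluster led by Tbc1d4 and Ccl22, at 233 and 62.1 CPM in NP137 and 251 and 49.9 CPM in control. The leading genes of this cluster also included Ccr7, Cd207 and Mgl2. Resolution 2 gave a dendritic-like cluster led by Cd207 and Mgl2 (492 cells) and another led by Ccl22 and Ccr7 (126 cells). Which of these kinds of cell held Pgf was not tested. The other dendritic cluster with at least 20 cells in NP137 2, led by Siglech, held 18.4 CPM there. Among macrophages, clusters led by Mmp12 and Chil3 held 140.1 and 39.6 CPM in NP137 and 76.3 and 23.2 CPM in control. The macrophage cluster led by Folr2 held at most 8.76 CPM in the libraries where it had 20 cells.

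Vegfb was read in most classes outside neutrophils. YFP-positive cells held 24.3 and 24.0 CPM in NP137 and 37.7 and 44.5 CPM in control, and lymphatic endothelial-like cells 41.2 and 40.9 CPM in NP137 and 46.5 and 47.2 CPM in control. Neutrophil-like cells held at most 5.64 CPM and blood endothelial-like cells at most 12.3 CPM. Vegfb passed as higher in YFP-positive (1.09 log2 units, SE 0.17, edgeR adjusted p = 2e-06) and as lower in neutrophil-like cells (-2.05, edgeR adjusted p = 9.8e-08). It was higher in lymphatic than in blood endothelium by 2.21 log2 units (edgeR adjusted p = 0.000162), from 7, 10 and 9 lymphatic UMIs in the 3 libraries that entered the fit.

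The lymphatic ligands Vegfc and Vegfd were not read in lymphatic endothelium. Blood endothelial-like cells held 53.8 and 44.5 CPM of Vegfc in NP137 and 46.4 and 58.6 CPM in control, with the groups overlapping. Fibroblast-like cells held 23.2 and 48.8 CPM in NP137 and 24.6 and 20.6 CPM in control, and overlapped with blood endothelium. In lymphatic endothelial-like cells 0 of 693156 UMIs were Vegfc over all libraries, which allows up to 4.33 CPM, at least 11.9-fold lower than the 51.6 CPM of blood endothelial-like cells summed in the same way. Other classes also averaged under this limit for Vegfc, such as pericyte-like cells at 2.01 CPM. Vegfd was at 0 UMIs too, with the same limit of 4.33 CPM. That lies above the 1.14 CPM of Vegfd in blood endothelial-like cells, so the 0 does not set these 2 classes apart for Vegfd. Vegfc passed as higher in blood endothelial-like (edgeR adjusted p = 7.81e-10), fibroblast-like (edgeR adjusted p = 1.73e-07) and YFP-positive cells (edgeR adjusted p = 9.61e-05). It also passed as higher in the Mmp13- and Gzme-led class (edgeR adjusted p = 1.41e-06), which averaged 25.4 CPM over the 4 libraries. Vegfd stood at 15.7 and 85.7 CPM in fibroblast-like cells of NP137 and at 21.8 and 11.1 CPM in those of control. YFP-positive cells held 7.04 and 1.46 CPM in NP137 and 18.7 and 6.62 CPM in control, and gave 54.9% and 0.742% of the Vegfd UMIs of NP137 and 84.6% and 70.9% of those of control. Fibroblast-like cells gave 13.8% and 95.7% in NP137 and 7.82% and 7.91% in control. Vegfd passed as higher in fibroblast-like (edgeR adjusted p = 9.32e-09) and YFP-positive cells (edgeR adjusted p = 0.00927). The fibroblast level of NP137 2 came from a cluster led by Lbp and Ptx3, with 216 CPM in 1103 cells, and the same cluster held 121 CPM in 24 cells of control 1. Fitted folds of Vegfc and Vegfd over the mean of the other classes depend on the lymphatic zeros and were refitted without the lymphatic class, a choice made after seeing the data. Vegfc was then higher by 2.96 log2 units in blood endothelial-like (SE 0.32, edgeR adjusted p = 2.69e-09), 2.13 in fibroblast-like (SE 0.31, edgeR adjusted p = 1.12e-06) and 1.32 in YFP-positive cells (SE 0.31, edgeR adjusted p = 0.000706). Vegfd was higher by 3.65 in fibroblast-like (SE 0.42, edgeR adjusted p = 1.81e-08) and 1.29 in YFP-positive cells (SE 0.47, edgeR adjusted p = 0.0232).

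**Figure D2:**
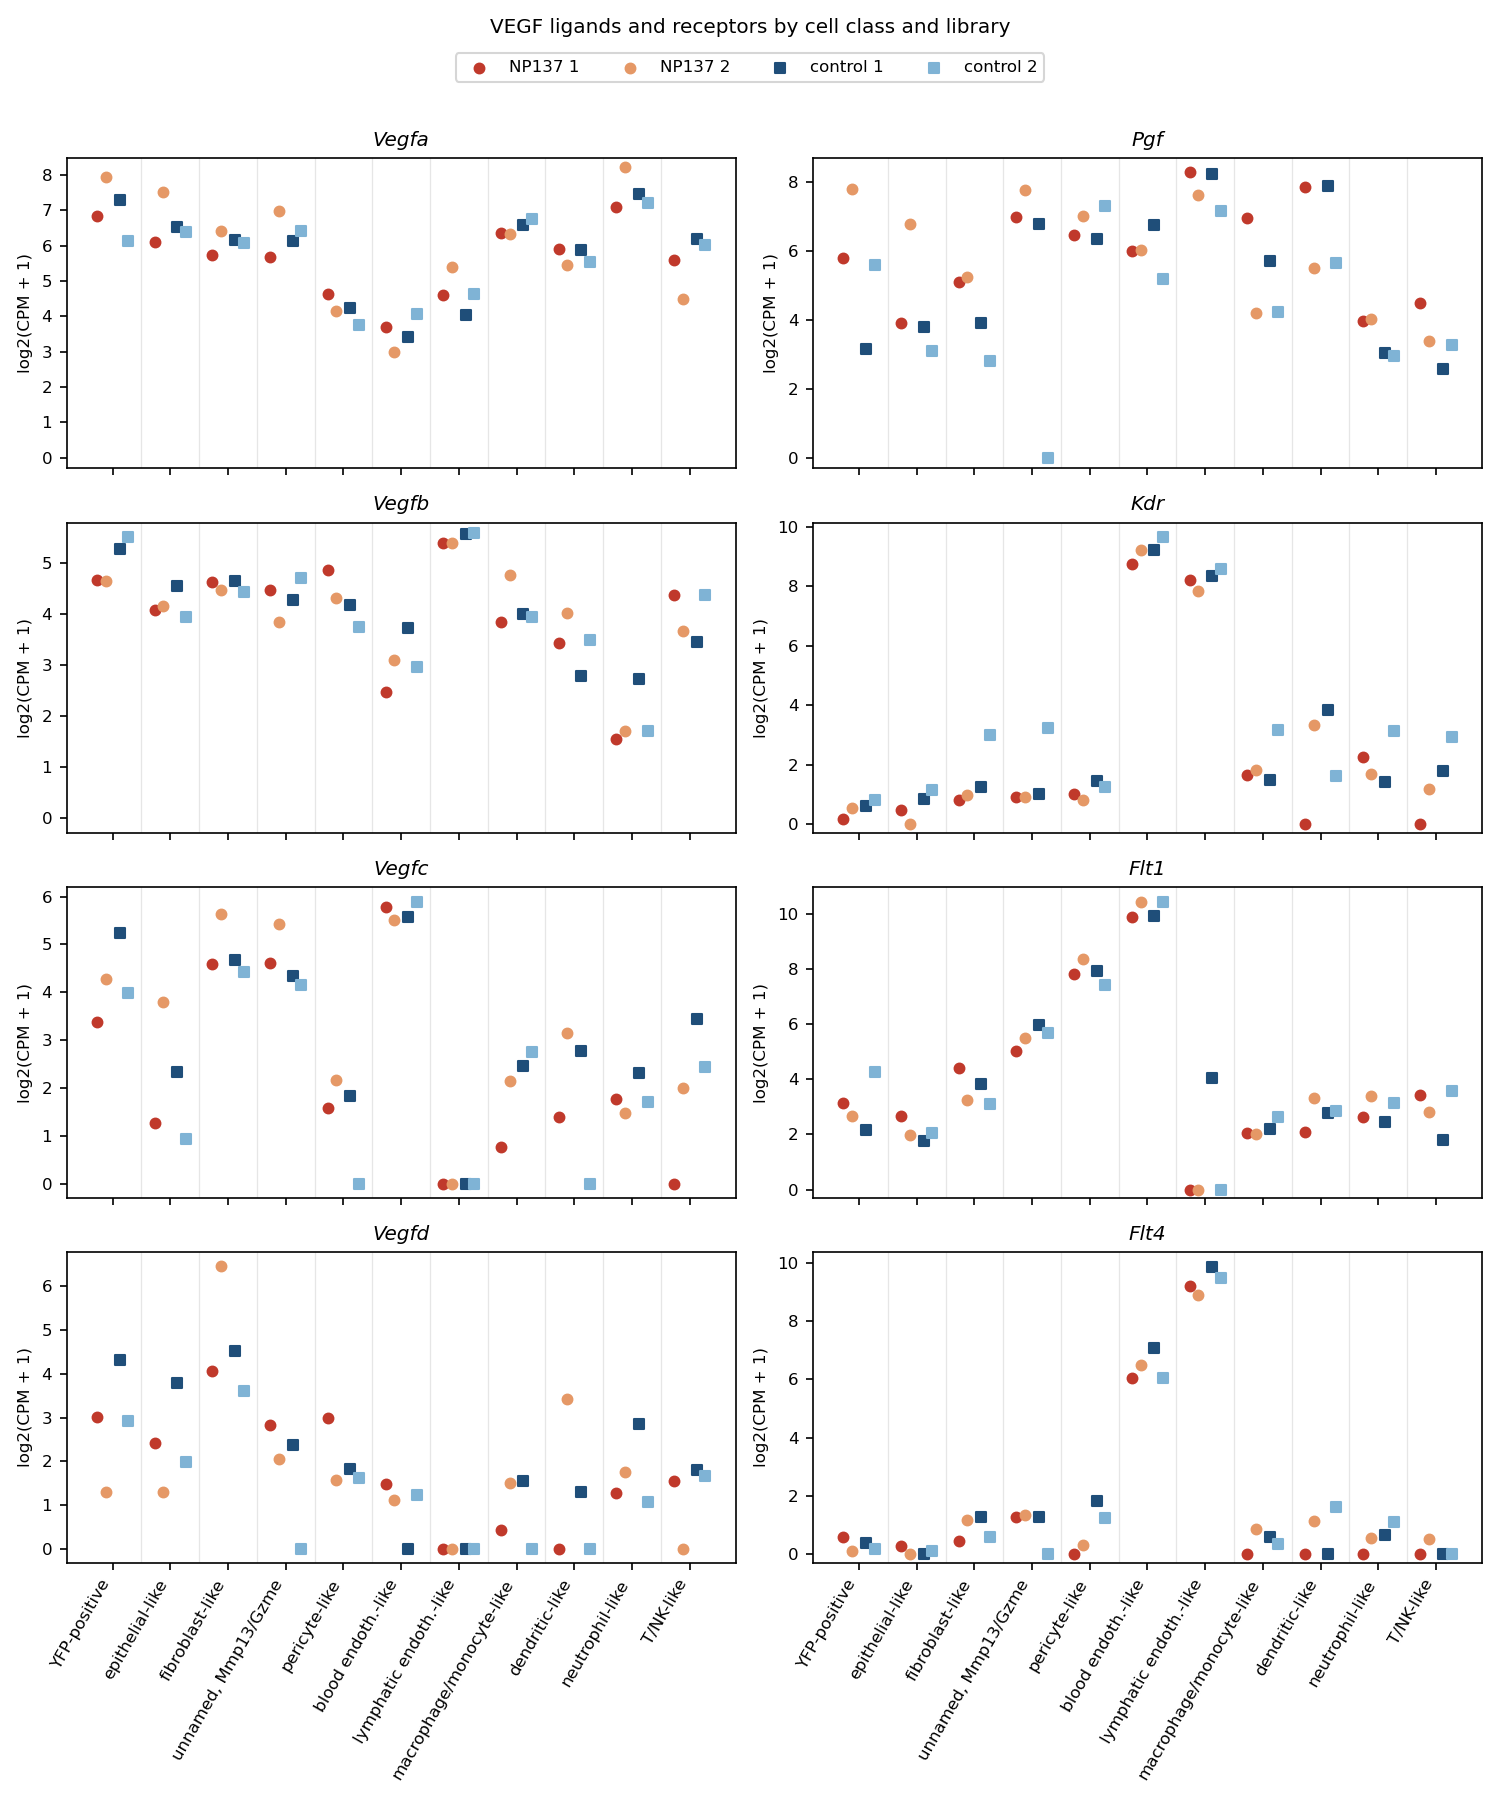
Level of each of the 8 genes as log2(CPM + 1) in 11 cell classes, 1 point per library, with NP137 as circles on the left and control as squares on the right of each class. Receptors peak in vascular classes, while Vegfa and Vegfb are low in blood endothelium and Vegfc has its highest mean there.

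Counted by class over the 13259 genes tested, 4 of the 8 members were higher in blood endothelial-like cells (Kdr, Flt1, Flt4 and Vegfc), where 18.6% of genes were, and Vegfa and Vegfb were lower, where 13.2% were. In lymphatic endothelial-like cells 4 were higher (Flt4, Kdr, Pgf and Vegfb; 8.3% of genes) and Vegfa was lower (6.59%). Against blood endothelium, the lymphatic class was higher in Flt4 and Vegfb (2.87% of genes) and lower in Flt1 and Vegfc (4.08%). In YFP-positive cells Vegfa, Vegfb, Vegfc and Vegfd were higher (29.9% of genes) and the 3 receptors were lower (17.5%). In fibroblast-like cells Vegfb, Vegfc and Vegfd were higher (24.3%), in pericyte-like cells Flt1 and Pgf (18.5%), and in the Mmp13- and Gzme-led class Vegfc, Flt1 and Pgf (24.1%). Vegfa alone was higher in neutrophil-like (25.8%), macrophage or monocyte-like (25.5%) and epithelial-like cells (22.7%), and Pgf alone in dendritic-like cells (20%). T or NK-like cells had no higher member, where 19.6% of genes were, and were lower in Pgf, Flt1 and Flt4 (17.9%). Epithelial-like cells were lower in the 3 receptors (20%), macrophage or monocyte-like cells in Flt1 and Flt4 (17.9%), neutrophil-like cells in Vegfb and Pgf (25.6%) and dendritic-like cells in Flt1 (12.1%). Pericyte-like cells were lower in Vegfa and Kdr (12.4%), and the Mmp13- and Gzme-led class (14.7%) and fibroblast-like cells (12%) in Kdr. Without the lymphatic class in the fit, Kdr in fibroblast-like cells and Flt4 in macrophage or monocyte-like and T or NK-like cells no longer passed, while Kdr in dendritic-like and Vegfb in macrophage or monocyte-like cells passed as higher. Lower calls gained there were Flt1 in neutrophil-like cells, Vegfd in macrophage or monocyte-like cells, and Vegfc in these 2 classes and in epithelial-like and pericyte-like cells. Classes were built from the same cells, so these contrasts describe where the genes were read.

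**Figure D3:**
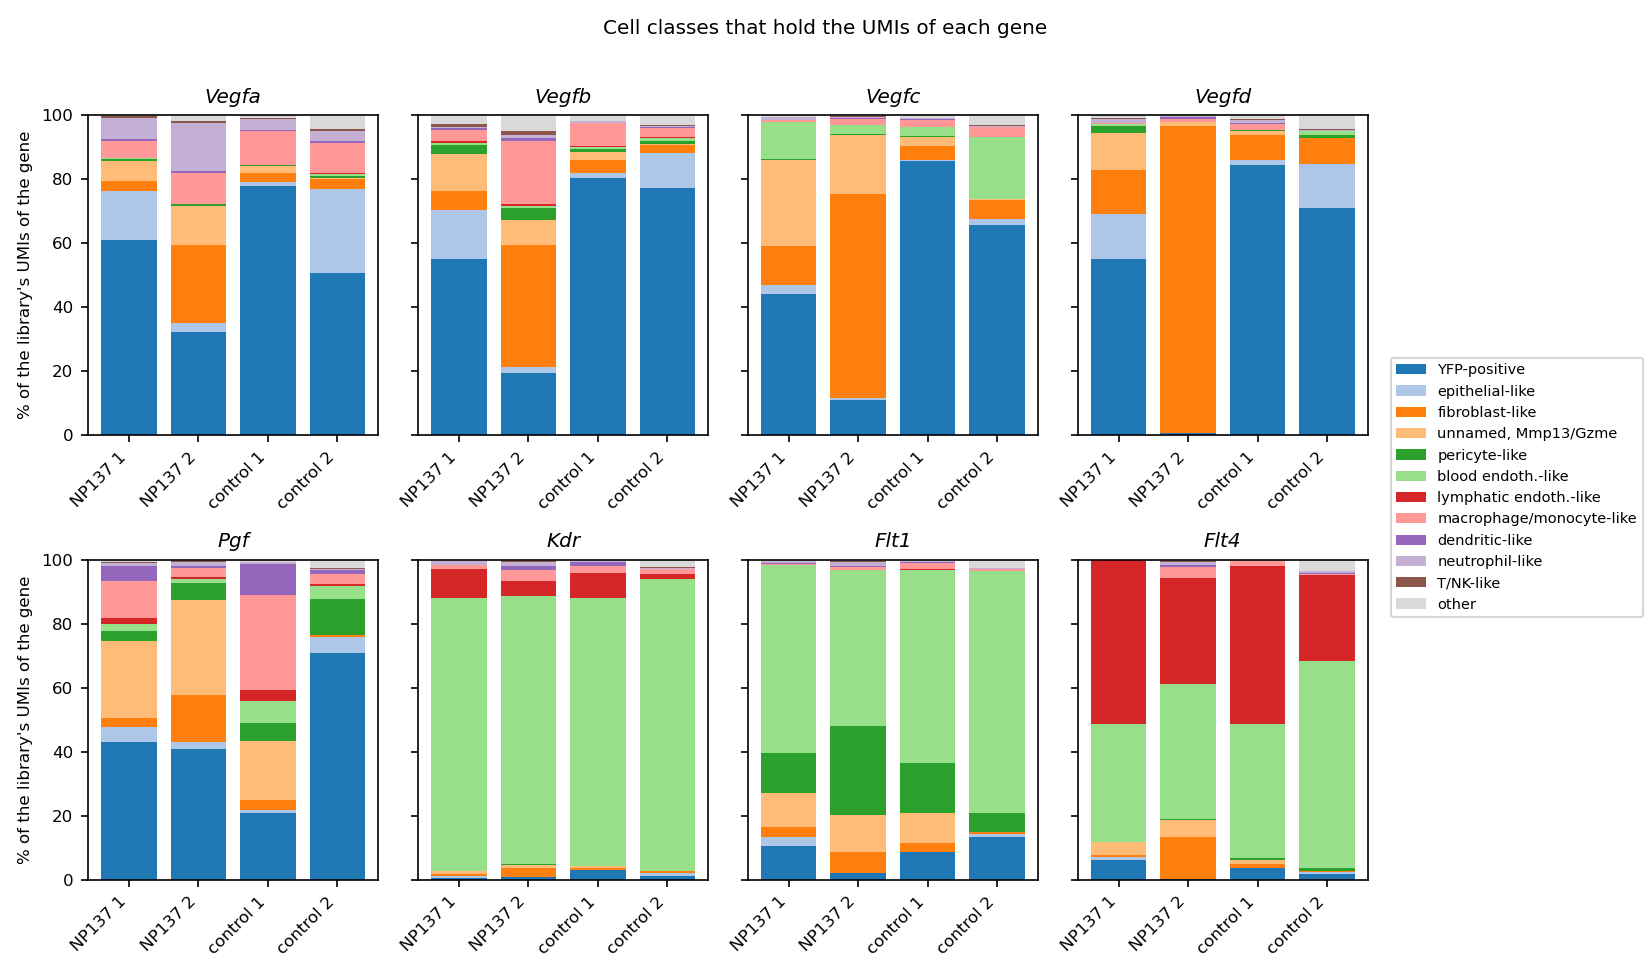
Share of each gene's UMIs in a library, in percent, by the class that gave them, with 1 bar for each of NP137 1, NP137 2, control 1 and control 2. Blood endothelial-like cells gave 83.7% to 91.1% of Kdr, YFP-positive cells gave most of Vegfa in 3 libraries, and fibroblast-like cells gave 95.7% of Vegfd in NP137 2 against 7.8% to 13.8% in the other libraries.

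Within the YFP-positive class, Vegfa and Pgf were highest in the cluster led by Tchh and Il24. Its cells held 602 CPM of Vegfa in NP137 1 (38 cells), 272 in NP137 2 (697 cells) and 511 in control 1 (26 cells). Pgf in the same cells was 533, 247 and 130.2 CPM in that order of libraries. Slc2a1, the glucose transporter induced by hypoxia, was also highest in this cluster, at 836 and 456 CPM in NP137 and 796 CPM in control 1. A second cluster, led by Wfdc2 and Pitx1, held 113 and 46.0 CPM of Vegfa in NP137 1 and 2 and 167 CPM in control 1, and 65.9 and 37.7 CPM of Pgf in NP137 against 31.4 CPM in control 1. Only these 2 clusters held Epcam, the epithelial adhesion gene, above 18.6 CPM in a library with at least 20 of their cells. They made up most YFP-positive cells of both NP137 libraries, the first 77.7% of NP137 2 and the second 73.3% of NP137 1. A further cluster, led by Fxyd2 and Rbp4, scored highest for the epithelial marker set without Epcam above 18.6 CPM. It held 636 cells of NP137 1 and 82 of control 1. Most YFP-positive cells of control lay in clusters low in Epcam, led by Acan and Krt8 (51.0% of control 1), Mme and Eln (38.9% of control 1) and Mgp and Clu (82.3% of control 2). In those clusters Vegfa was 141 and 173 CPM in control 1 and 66.1 CPM in control 2, while Pgf was 4.4 and 4.7 CPM in control 1 and 51.4 CPM in control 2. Vegfc was 6.8 CPM in the Wfdc2 cluster of NP137 1 and 17.5 CPM in the Tchh cluster of NP137 2, against 40.8 and 36.8 CPM in the Acan and Mme clusters of control 1. Levels of the whole YFP-positive class thus rest on different clusters in each library, and the part of this in the differences between groups was not tested.

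**Figure D4:**
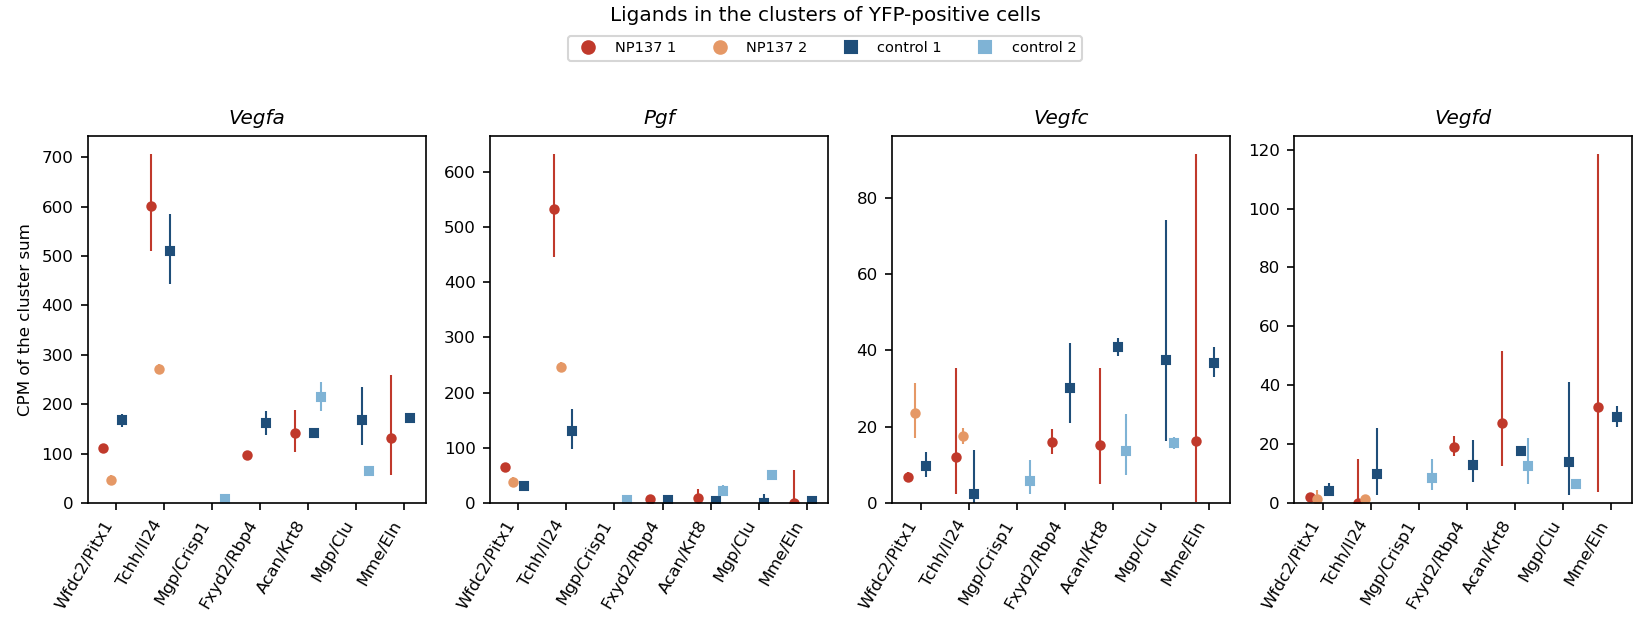
Vegfa, Pgf, Vegfc and Vegfd in CPM in each YFP-positive cluster of at least 20 cells in a library, with 95% Poisson intervals, clusters ordered from high to low Epcam and libraries marked as NP137 circles and control squares. The Tchh and Il24 cluster stands highest for Vegfa, from 272 to 602 CPM, and for Pgf, from 130.2 to 533 CPM.

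NP137 was compared with control within each of the 10 classes with at least 20 cells in every library. In 49 member-by-class tests edgeR called 0, with 2 at an unadjusted p under 0.05, while DESeq2 called 1. In sums over all cells edgeR called 0 of 8 members, with 1 at an unadjusted p under 0.05, and DESeq2 called 1. The edgeR background was as low, while that of DESeq2 was not low in YFP-positive cells. edgeR called 0.0% of genes in all cells and in 9 classes and 0.00865%, a single gene, in epithelial-like cells, while DESeq2 called 14.5% in the YFP-positive class and 1.58% over all cells. DESeq2 called 1.05% in epithelial-like, 0.332% in fibroblast-like, 0.0855% in T or NK-like, 0.076% in blood endothelial-like, 0.0448% in pericyte-like, 0.0342% in neutrophil-like, 0.032% in dendritic-like, 0.0261% in macrophage or monocyte-like and 0.0% in Mmp13- and Gzme-led cells.

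Pgf was the member with the largest positive differences. In YFP-positive cells it stood at 54.7 and 224 CPM in NP137 and at 7.94 and 47.7 CPM in control, so both NP137 libraries lay above both controls, as 19.1% of genes did in this class. The means were 139 ± 120 CPM in NP137 and 27.8 ± 28.1 CPM in control (SD, n = 2 each). The log2 fold change was 2.63 (SE 1.10), which did not pass in edgeR (adjusted p = 0.253) and passed in DESeq2 (2.65, adjusted p = 0.033). It ranged from 1.19 to 4.38 when 1 library was left out. In fibroblast-like cells Pgf was 33.6 and 37.0 CPM in NP137 and 14.3 and 6.03 CPM in control, a log2 fold change of 1.79 (SE 0.46, edgeR adjusted p = 0.745). In neutrophil-like cells it was 14.9 and 15.4 CPM in NP137 and 7.33 and 6.71 CPM in control, a log2 fold change of 1.31 (SE 0.56, edgeR adjusted p = 1). T or NK-like cells, taken as a measure of free RNA, held 21.6 and 9.48 CPM of Pgf in NP137 and 4.95 and 8.81 CPM in control. These ranges contain the neutrophil-like values of both groups. The tumour reporter YFP was 122 and 17.7 CPM in neutrophil-like sums of NP137 and 128 and 30.2 CPM in those of control. It was 55.3 and 3.72 CPM in fibroblast-like sums of NP137 and 34.7 and 11.1 CPM in those of control. The part of free tumour RNA in the Pgf values was not tested. In all cells Pgf was 59.4 and 85.2 CPM in NP137 and 24.8 and 35.7 CPM in control, a log2 fold change of 1.44 (SE 0.32) that passed in DESeq2 (adjusted p = 0.0277) and not in edgeR (adjusted p = 0.786).

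Both NP137 libraries were above both controls for Pgf in 6 of the 10 classes. These were YFP-positive, epithelial-like (18.7% of genes), fibroblast-like (18.5%), neutrophil-like (6.25%), T or NK-like (13.5%) and Mmp13- and Gzme-led cells (18.9%). The last rests in control 2 on 25 cells with 0 Pgf UMIs, which allows up to 25.3 CPM. The epithelial-like class also held cells with the tumour reporter, with a YFP UMI in 23.52% and 36.55% of the cells of its clusters. The part of tumour cells in its Pgf difference was not tested. The groups overlapped for Pgf in the other 4 classes, with a log2 fold change of -0.05 (SE 0.52) in blood endothelial-like, -0.10 in pericyte-like, -0.08 in dendritic-like and 1.11 (SE 1.13) in macrophage or monocyte-like cells. Macrophage or monocyte-like cells held 124 and 17.3 CPM of Pgf in NP137 and 51.7 and 18.0 CPM in control. A count of 6 of the 10 classes was not particular to Pgf. For Kdr both NP137 libraries lay below both controls in YFP-positive, epithelial-like, fibroblast-like, pericyte-like, T or NK-like and Mmp13- and Gzme-led cells. Kdr averaged only 0.47 to 2.8 CPM in these classes, below the 5 CPM that the shares of genes required. In YFP-positive cells of the mixed NP137 1 library Pgf was 23.9 CPM (95% Poisson interval 19.2 to 29.4) in cells with Xist UMIs alone and 60.1 CPM (55.4 to 65.1) in cells with Y-linked UMIs alone.

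The other ligands differed by less, or not in 1 direction. Vegfa in YFP-positive cells had a log2 fold change of 0.94 (SE 0.60, edgeR adjusted p = 0.409), and control 1 lay between the 2 NP137 libraries. It ranged from 0.23 to 1.69 when 1 library was left out. In T or NK-like cells both NP137 libraries lay below both controls for Vegfa, as 22.2% of genes did, with a log2 fold change of -0.99 (SE 0.47, edgeR adjusted p = 0.787). In neutrophil-like cells it was 0.69 (SE 0.53), in macrophage or monocyte-like cells -0.24 (SE 0.21) and in all cells 0.19 (SE 0.39). Vegfb in YFP-positive cells was lower in both NP137 libraries than in both controls, as 38.1% of genes were, with a log2 fold change of -0.52 (SE 0.25, edgeR adjusted p = 0.297). Vegfc was -0.65 (SE 0.62) in YFP-positive and -0.04 (SE 0.26) in blood endothelial-like cells. Vegfd was 1.70 (SE 0.94) in fibroblast-like cells, with the first NP137 library inside the control range.

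No receptor passed in blood endothelium, where NP137 and control libraries overlapped for all 3. Kdr averaged 513 ± 116 CPM in NP137 and 695 ± 152 CPM in control (SD, n = 2 each), a log2 fold change of -0.37 (SE 0.26, edgeR adjusted p = 0.628) that ranged from -0.61 to -0.13 when 1 library was left out. Flt1 was 0.03 (SE 0.28) and Flt4 -0.28 (SE 0.38). In pericyte-like cells Flt1 was 0.45 (SE 0.28). In lymphatic endothelial-like cells, tested with the 11 cells of control 2 included as a choice made after seeing the data, Kdr was -0.44 (SE 0.31) and Flt4 -0.67 (SE 0.30, edgeR adjusted p = 0.749). For Kdr, Flt4 and Vegfb both NP137 libraries lay below both controls in this class, as 17.6% of genes did. The 7 lymphatic markers, summed, did too, at 10685 and 7011 CPM in NP137 and 12727 and 18055 CPM in control, and their part in these differences was not tested. An interaction fit asked whether the NP137 difference of a class departed from that of YFP-positive cells. It called 0 of 72 member-by-class tests, with 8 at an unadjusted p under 0.05 and a smallest edgeR adjusted p of 0.13, where 2.48% of all gene-by-class tests were called.

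**Figure D5:**
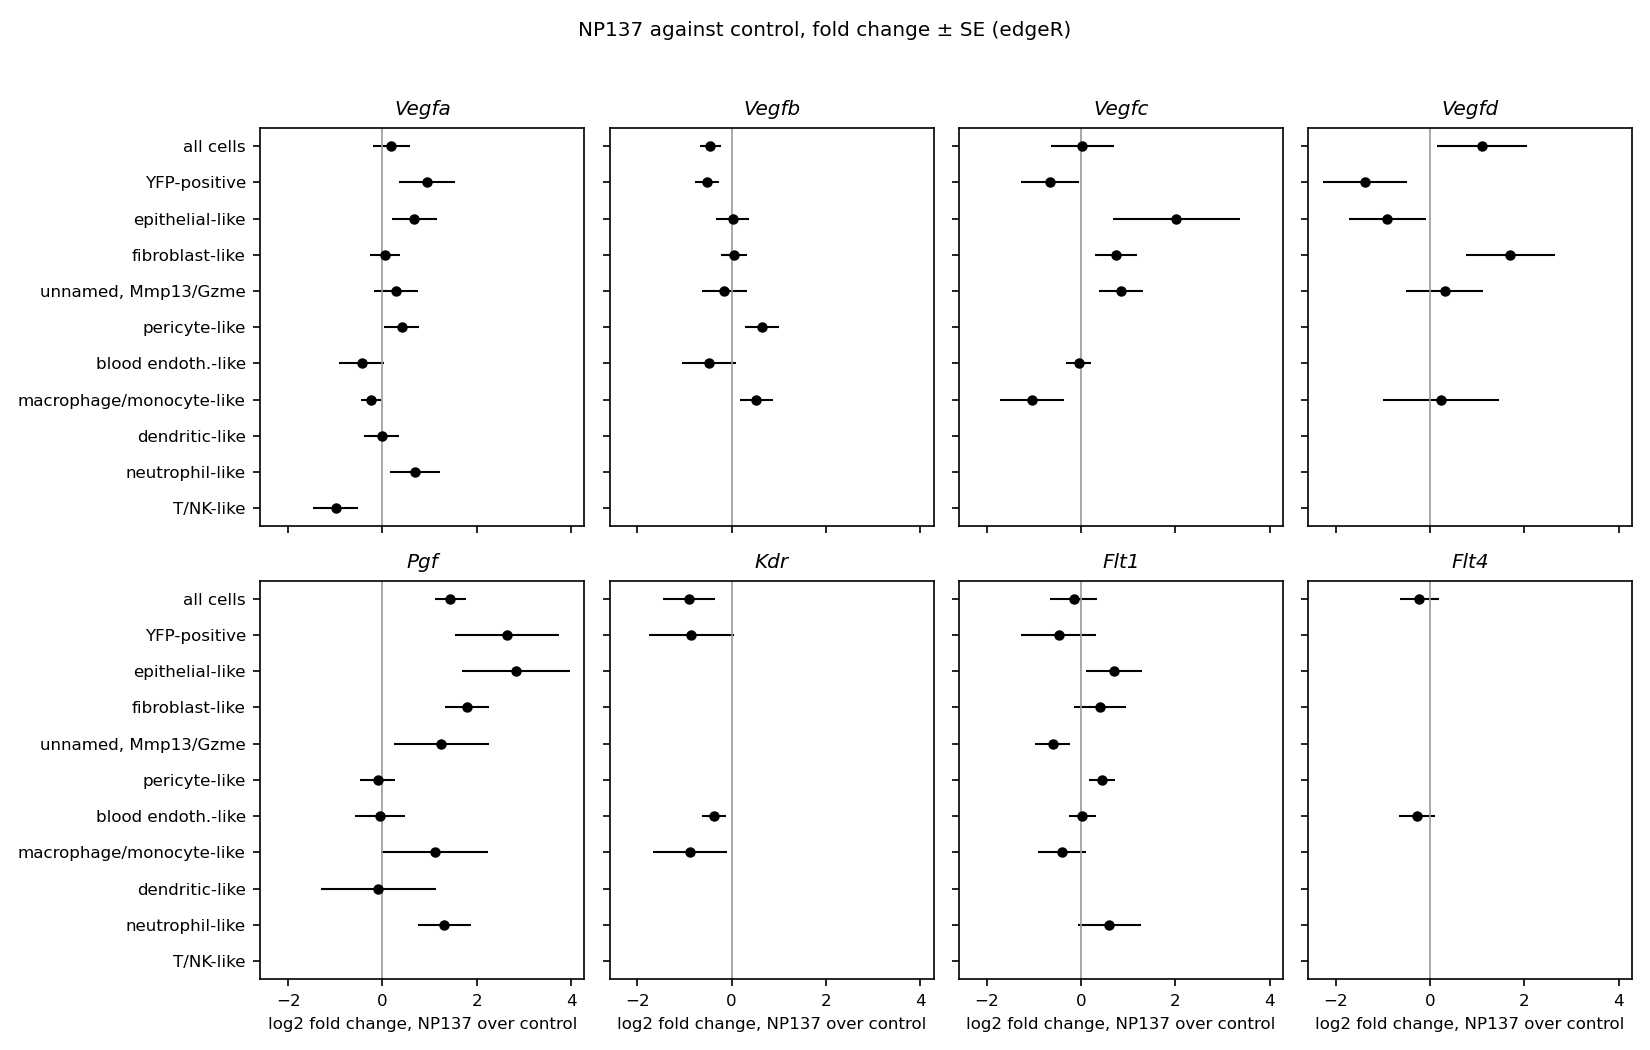
Log2 fold change of NP137 over control from edgeR, with its SE as the bar, for each member in each class where it was tested. Pgf lies to the positive side in YFP-positive, epithelial-like and fibroblast-like cells, from 1.79 to 2.82, and near 0 in blood endothelial-like cells, while the receptors lie close to 0 in vascular classes.

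Genes around the pathway were read in 7 lists with 49 members. In edgeR 0 of 334 gene-by-class tests passed, with 62 at an unadjusted p under 0.05, and DESeq2 called 21, of which 17 were in YFP-positive, 4 in epithelial-like and 0 in blood endothelial-like cells. Over all genes DESeq2 called 14.5% in YFP-positive, 1.05% in epithelial-like and 0.076% in blood endothelial-like cells. In edgeR 3082 of 13805 genes of YFP-positive and 850 of 9209 genes of blood endothelial-like cells had an unadjusted p under 0.05. The hypoxia response list (Adm, Slc2a1, Ndrg1, Bnip3, Car9, Ankrd37, Pgk1, Ldha, P4ha1 and Pdk1) had positive fold changes for 10 of 10 members in all cells, with a median of 1.12 log2 units against 0.015 over all genes. In YFP-positive cells 9 of 10 were positive with a median of 2.05, in blood endothelial-like cells 9 of 9 with a median of 0.84, and in fibroblast-like cells 9 of 9 with a median of 1.00, where the medians of all genes lay between -0.027 and -0.013. In macrophage or monocyte-like cells 6 of 10 were positive with a median of 0.13. Ldha, which makes lactate from pyruvate, was 1820.5 and 2232 CPM in NP137 and 669 and 672 CPM in control in YFP-positive cells, a log2 fold change of 1.84 (SE 0.26, edgeR adjusted p = 0.0893). Ankrd37, a small hypoxia-induced gene, was 25.0 and 50.8 CPM in NP137 and 7.49 and 6.93 CPM in control (2.66, edgeR adjusted p = 0.101). DESeq2 called both, Ldha at an adjusted p of 4.35e-06 and Ankrd37 at 2.32e-05. In blood endothelial-like cells Ldha was 702 and 654 CPM in NP137 and 443 and 349.8 CPM in control (0.84, edgeR adjusted p = 0.53).

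The co-receptor and semaphorin list leaned the other way, with 1 of 6 members positive in all cells (median -0.53) and 1 of 6 in YFP-positive cells (median -1.58). Sema3a, a secreted ligand of neuropilins that restrains vessel growth, was 1.65 and 0.53 CPM in YFP-positive cells of NP137 and 41.9 and 73.5 CPM in those of control, a log2 fold change of -5.48 (SE 0.65) that did not pass in edgeR (adjusted p = 0.0893) and passed in DESeq2 (adjusted p = 7.57e-16). Nrp2, a co-receptor of VEGF-C, was 61.2 and 64.5 CPM in NP137 and 130.1 and 112 CPM in control over all cells (-0.77, edgeR adjusted p = 0.786). In blood endothelial-like cells 0 of 5 tested members of this list were positive (median -0.21). The endothelial response list, which holds targets such as Dll4, Esm1 and Apln, had 4 of 12 positive members in blood endothelial-like cells and a median of -0.08. Tie1, a receptor-like partner of the angiopoietin receptor, was 129 and 159 CPM in blood endothelial-like cells of NP137 and 250.4 and 243 CPM in those of control (-0.71, SE 0.21, edgeR adjusted p = 0.53). Epas1, the hypoxia-inducible factor of endothelium, was 249.9 and 203 CPM in NP137 and 418 and 448 CPM in control (-0.87, SE 0.22, edgeR adjusted p = 0.53). In YFP-positive cells the list of other angiogenic ligands and inhibitors had 1 of 6 positive members and a median of -2.17. The inhibitor Thbs2 was 48.8 and 22.3 CPM in NP137 and 193 and 509 CPM in control (-3.07, edgeR adjusted p = 0.109). The inhibitor Cxcl10 was 12.3 and 8.98 CPM in NP137 and 49.5 and 61.0 CPM in control (-2.14, edgeR adjusted p = 0.0893). The VEGF-C processing list had 1 of 4 positive members there (median -2.18), with Plat, the tissue plasminogen activator, at 62.5 and 46.0 CPM in NP137 and 171 and 182 CPM in control (-1.47, edgeR adjusted p = 0.0985). DESeq2 called Thbs2 (adjusted p = 1.82e-05), Cxcl10 (adjusted p = 1.01e-06) and Plat (adjusted p = 0.000294). Of the same lists, DESeq2 also called the ligand Cxcl12 as lower (-4.50, adjusted p = 2.02e-06). It called Ccbe1 (-2.87, adjusted p = 0.000788) and Adamts3 (-4.81, adjusted p = 0.0051) of the VEGF-C processing list as lower too. The angiopoietin and Tie list had 2 of 4 positive members in YFP-positive cells (median -0.11), and the oxygen sensing list 5 of 6 (median 0.53).

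Genes most like each member were taken over 56 sums of 18 classes, which share libraries and depth, by the Pearson correlation of log2(CPM + 1). For Kdr these were led by Grrp1 (0.937) and Cdh5 (0.931), and for Flt4 by D030007L05Rik (0.956) and Ccm2l (0.938). Flt1, split between endothelium and pericytes, had lower values, led by Vsig2 (0.816) and Tcf15 (0.815). Vegfa came closest to Ptgs2 (0.757) and Arl4c (0.754), with Bnip3 of the hypoxia response list at 0.665. The highest values were 0.851 for Vegfb (Tmem55a), 0.72 for Vegfc (Efna2), 0.706 for Vegfd (Podxl2) and 0.706 for Pgf (Creld1).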

How the data were processed

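The authors deposited UMI counts per gene and barcode for 4 libraries, and the file headers name version 3.0.2 of the 10x software, while the submitters' processing notes name mm10 and Seurat 3.1.5. The rule that called barcodes as cells is not given in the sources used here. Per the labels, 10000 cells were loaded per channel. More barcodes than that were used as cells in NP137 1 (14205), NP137 2 (14513) and control 1 (10482). These numbers were not reconciled. An allele of the mouse model is not reported here. The members and all gene lists were chosen with earlier results of these data known.

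The files held 18146 and 17745 barcodes in NP137 and 12792 and 8328 in control. Barcodes needed 200 genes or more and less than 20% of UMIs from mitochondrial genes, and doublets were removed at 0.8% per 1000 barcodes by a simulated-doublet score with 30 neighbours. That number was set after a default had removed lymphatic endothelial cells. Leiden clustering at resolution 1 gave 37 clusters, on a graph of 15 neighbours in 30 principal components of 2000 variable genes. A cluster was named "-like" after the marker set of highest score. It was left unnamed with under 3 detected markers, a score under 0.3, leading genes of another class, or few UMIs and no own marker among its 10 leading genes. Clusters with YFP UMIs in 50% or more of their cells were called YFP-positive.

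Counts were summed per library and class, with the YFP row kept, for classes with at least 20 cells. NP137 and control (2 libraries each) were compared in edgeR with TMM scaling, filterByExpr and a robust glmQLFit, using the quasi-likelihood test, and p was adjusted by Benjamini-Hochberg over all genes (threshold 0.05). All tests are two-sided. Contrasts between classes used 1 fit of 11 classes with library as a block; the lymphatic class entered with 3 libraries. The tests were checked on simulated counts of known change. Poisson intervals (95%) and the limit that a count of 0 allows (3 counts) cover counting error only.

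All 8 members are named whatever their p. Of the pathway lists, genes that passed are named, filled up to the 6 of smallest p per comparison, of which a part is printed. Cxcl12, Ccbe1 and Adamts3 are named from DESeq2 calls in YFP-positive cells. For each member the 5 genes of highest correlation with a mean of at least 5 CPM in some class were found, of which the first are printed. The sample numbers in the titles are not stated to mark shared animals, and same-numbered libraries did not deviate together (correlations of -0.173 to 0.169 over classes), so they were not treated as pairs. Alternatives were DESeq2, DESeq2's size factors, all genes kept whatever their counts, leaving out each library, the number as a block, doublets kept, a stricter filter on cells (500 genes and 10% from mitochondria), resolution 2, other thinning depths and 4 added after seeing the data. These 4 were crossed sample numbers, shares without the AY036118- and Clu-led cells, the lymphatic class from 10 cells, and class contrasts without the lymphatic class. Promoters are from RefSeq (GRCm38.p6, all 8 members matched) and coordinates from GENCODE M21. The R packages were DESeq2 1.42.0, limma 3.58.1 and edgeR 4.0.16 under R 4.3.3. Cells were handled in Python 3.11.15 (leidenalg 0.10.2, scipy 1.17.1, numpy 2.4.6, pandas 2.3.3) and drawn with matplotlib 3.10.9.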

Additional observations from a re-analysis of the deposited data

How the results depend on the processing

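The counts of calls between NP137 and control depended on the tool and filter. Against 0 members called within classes by edgeR, DESeq2 called 1 (Pgf in YFP-positive cells), edgeR with no filter on low counts 1 (Pgf in fibroblast-like cells, 1.83), and leaving out 1 library gave 0 to 1, the 1 without NP137 1 (Pgf in epithelial-like cells, 3.69). Over all cells DESeq2 called 1 member (Pgf). Of the pathway genes within classes, DESeq2 called 21, no filter 28 and leaving out 1 library 0 to 16, and over all cells DESeq2 called 3. Genes called in YFP-positive cells numbered 0 in edgeR, 2004 in DESeq2, 990 with no filter and 240 without NP137 1. In blood endothelial-like cells they numbered 0, 7, 146 and 37 in that order.

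Of 257 log2 fold changes under settings that kept all libraries, 254 kept their direction. Pgf in blood endothelial-like cells turned to 0.60 with no doublets removed and to 0.12 with the sample number as a replicate block, and Flt1 there to -0.10 with no doublets removed; the cause was not tested. The replicate block called 0 members. With crossed numbers dendritic-like cells gave 35 called genes of 6244 and all cells 0 of 16507, with 0 members in both.

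Leaving out 1 library kept 140 of 152 directions. The ranges that crossed 0 were -0.67 to 0.93 for Pgf, -0.26 to 0.31 for Flt1, -0.73 to 0.33 for Flt4 and -0.18 to 0.15 for Vegfc in blood endothelial-like cells, -0.22 to 0.71 for Vegfa and -1.47 to 0.023 for Kdr in all cells, -0.19 to 1.25 for Vegfa in neutrophil-like, -1.26 to 0.20 for Vegfc in YFP-positive and -0.11 to 2.43 for Vegfd in fibroblast-like cells. The difference in lymphatic share ranged from -0.09 to 0.212 percentage points and that in blood endothelial share from -3.95 to -0.167. Pgf kept its sign in all cells (1.13 to 1.71) and in fibroblast-like (1.30 to 2.70), neutrophil-like (1.11 to 1.49) and YFP-positive cells. With 2 libraries a group and 11 lymphatic cells in control 2, small differences were not detectable at this depth. Large differences could also fail to pass in edgeR, such as Sema3a in YFP-positive cells at -5.48 log2 units (edgeR adjusted p = 0.0893). A test that did not pass therefore does not show that a difference is absent.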

Other observations

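Neutrophil clusters differed in Vegfa between libraries of both groups. The cluster led by BC018473 and G0s2 held 317 CPM in NP137 2 and 209.9 and 125 CPM in control. The cluster led by Retnlg and Wfdc21 held 138 and 261 CPM in NP137 and 185 and 163 CPM in control. Among macrophages, Vegfa was 89.7 and 205 CPM in NP137 and 163 and 178 CPM in control in the cluster led by Mmp12 and Chil3, and 41.2 CPM in the Folr2-led cluster of NP137 2. Vegfc in fibroblasts was spread over clusters, with 27.2 and 61.9 CPM in NP137 and 24.7 and 21.6 CPM in control in the cluster led by Cxcl5 and Mfap5.

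Among the cells of the mixed NP137 1 library, Kdr in blood endothelial-like cells was 448 CPM in 192 cells with Xist UMIs alone and 558 CPM in 42 cells with Y-linked UMIs alone. Pgf in the same cells was 78.3 CPM with Xist UMIs alone, and 0 CPM with Y-linked UMIs alone (95% Poisson interval 0 to 26.0). No test was made between these cells, which come from 1 library.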
